A study of Oryctolagus cuniculus with 12 samples.

Results

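The genes described here are 8 genes of Schwann cells and peripheral nerve that were named by symbol, namely SOX10, CDH19, NGFR, MBP, PRX, PMP22, S100B and NES. Of these, 7 had a row under their symbol in the deposited expression table, and all 7 were among the 13287 genes tested, out of 29587 genes in the table and 14494 genes with a symbol. PMP22, a compact myelin protein, had no row under that symbol and was left out. A row without a symbol but with that protein's description is given separately.

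Bulk RNA-seq was performed on ear tissue of wild-type female rabbits aged 10 to 12 weeks, with 3 samples in each of 4 groups and 3 rabbits stated per group. The NS group was normal ear skin without wounding or treatment, and the HS group was untreated hypertrophic scar, which had formed in wounds of 7 mm of the ventral ear from which epidermis, dermis and perichondrium had been removed. In the drug-loaded MNs group, each scar received 1 patch of gelatin microneedles carrying a 5-fluorouracil prodrug, and in the 5-Fu injection group each scar received 0.1 mL of 5-fluorouracil (120 μg), both given on days 22, 29 and 36 after resection. All tissue was taken at full thickness on day 43, so that skin, cutaneous nerve, vessels and any ear cartilage of a sample entered the same library.

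Schwann cells are the glia of peripheral nerve and derive from the neural crest. Some wrap single large axons in myelin, and others hold bundles of small unmyelinated axons, which make up most nerve fibres of the skin. SOX10 is the transcription factor that keeps cells in this lineage and turns on myelin genes together with EGR2. When a nerve is cut, Schwann cells beyond the cut lose myelin gene expression and take on a repair state, with higher NGFR, GAP43 and JUN. Several of the genes are not exclusive to nerve: SOX10 is also made by melanocytes, S100B by chondrocytes, melanocytes and adipocytes, NGFR by basal and follicular keratinocytes, and NES by newly formed vessels and muscle progenitors.

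Levels are given in FPKM, which is the number of fragments on a gene relative to its length and to a library size, so levels of different genes can be set side by side. Fold changes come from limma on log2(FPKM + 1), in 1 fit of all 12 samples, with Benjamini-Hochberg adjustment over all 13287 genes whose mean FPKM was 1 or more. A gene was called where its adjusted p was under 0.05 and its absolute log2 fold change above 1. Between 10521472 and 14043667 reads lay on genes in each sample, and each of the 7 genes held from 116 to 2974 of them per sample.

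The first comparison, HS versus NS, asked how scar differed from normal skin. SOX10 was called, with a level 3.42-fold lower in scar, and was the only one of the 7 genes to pass. Of 21 alternative analyses, 21 called SOX10, 5 NGFR, 3 CDH19, 3 S100B, 2 MBP, 1 PRX and 0 NES. SOX10, CDH19, NGFR, MBP, PRX and S100B, 6 of the 7 genes, were lower in every HS sample than in any NS sample. Over all genes tested, 1.48% were called lower in HS and 15.3% were lower in every sample. An unadjusted p under 0.05 on the lower side was found for 6 of the 7 genes, beside 10.2% of all genes tested. The median log2 fold change was -1.32 over the 7 genes and -0.01 over all genes tested. NES was the exception, with values of HS above those of NS.

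SOX10 (ENSOCUG00000012067, on scaffold GL018972 from 226966 to 234714, minus strand, in the coordinates of the table, whose genome build is not given in the sources used here) is the lineage factor of Schwann cells. Its level was 60.1, 28.9 and 30.1 FPKM in NS, 10.4, 12.4 and 8.36 in HS, 9.92, 14.5 and 8.07 with drug-loaded MNs, and 11.3, 11.7 and 23.8 with 5-Fu injection. All 9 scar samples, treated or not, lay below the lowest NS sample. The share of all genes tested with this pattern over the 9 scar samples was not counted. The log2 fold change of HS versus NS was -1.77 (SE 0.34, 95% interval -2.52 to -1.02, limma adjusted p = 0.0115), and the call was kept in 21 of 21 alternative analyses, with adjusted p from 0.00608 to 0.0482. The mean was 39.7 ± 17.7 FPKM in NS and 10.4 ± 2.01 in HS (SD, n = 3).

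CDH19 (ENSOCUG00000017601, chromosome 9 from 106706415 to 106792215, minus strand) encodes a cadherin found in Schwann cell precursors and non-myelinating Schwann cells. It read 18.3, 7.89 and 10.7 FPKM in NS, 5.11, 6.75 and 2.94 in HS, 4.62, 5.60 and 3.32 with drug-loaded MNs, and 3.97, 4.64 and 6.02 with 5-Fu injection. As for SOX10, no scar sample reached the lowest NS sample, and the 3 scar groups overlapped one another. HS versus NS gave a log2 fold change of -1.14 (SE 0.32, limma adjusted p = 0.0537), just outside the threshold. With a sample left out it ranged from -1.39 without NS replicate 2, where it passed (limma adjusted p = 0.0437), to -0.84 without NS replicate 1 (limma adjusted p = 0.189).

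NGFR (ENSOCUG00000007635, chromosome 19 from 38085300 to 38102065, minus strand) is the low-affinity receptor for neurotrophins. Its level was 59.5, 31.1 and 43.5 FPKM in NS, 18.9, 23.1 and 8.83 in HS, 9.66, 22.1 and 13.7 with drug-loaded MNs, and 24.0, 15.6 and 28.4 with 5-Fu injection. NS again stood above every scar sample. The difference of HS from NS was -1.40 on the log2 scale (SE 0.39) and missed the threshold, with a limma adjusted p of 0.0528. With a sample left out it ranged from -1.66 to -1.01, and the limma adjusted p was highest without NS replicate 1 (0.186) and passed only without 5-Fu injection replicate 2 (0.0476), a sample that entered only the shared spread.

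MBP and PRX belong to the myelinating Schwann cell. MBP (ENSOCUG00000025487, scaffold GL018851 from 195894 to 319943, minus strand) encodes a protein of compact myelin, and read 14.9, 7.39 and 8.59 FPKM in NS, 4.47, 5.23 and 3.29 in HS, 4.28, 5.05 and 4.01 with drug-loaded MNs, and 12.4, 4.49 and 4.84 with 5-Fu injection. PRX (ENSOCUG00000027912, scaffold GL018912 from 119887 to 129163, plus strand) encodes periaxin, which links the outer myelin surface to the basal lamina through dystroglycan. Its level was 27.5, 10.6 and 14.9 FPKM in NS, 7.08, 8.51 and 3.41 in HS, 4.09, 8.46 and 8.36 with drug-loaded MNs, and 19.8, 4.82 and 8.40 with 5-Fu injection. For both genes NS and HS did not overlap, and 5-Fu injection replicate 1 alone among the scar samples lay within the NS range. The log2 fold change of HS versus NS was -1.05 for MBP (SE 0.34, limma adjusted p = 0.092) and -1.32 for PRX (SE 0.49, limma adjusted p = 0.134), and neither was called. Without NS replicate 1 the fold changes were -0.77 for MBP and -0.96 for PRX (limma adjusted p = 0.288 and 0.373). MBP was called without 5-Fu injection replicate 1, with the fold change the same and a limma adjusted p of 0.0258, and no other left-out sample made it pass. The interval of PRX overlaps that of another gene on the same strand, a gene without a symbol at a mean of 31.3 FPKM, so reads in the shared stretch could be assigned to either.

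S100B (ENSOCUG00000001473, chromosome 14 from 163365756 to 163373742, plus strand) encodes a calcium-binding protein used as a stain for Schwann cells, and was the most abundant of the 7 genes per length. It read 304, 125 and 200 FPKM in NS, 22.3, 40.9 and 49.3 in HS, 73.7, 94.4 and 138 with drug-loaded MNs, and 317, 23.1 and 220 with 5-Fu injection. HS lay below NS and below drug-loaded MNs in every sample, and the 5-Fu injection samples ran from the level of HS to above that of NS. HS versus NS gave -2.43 on the log2 scale, the lowest value of the 7 genes, with the widest error (SE 0.78, limma adjusted p = 0.087). With a sample left out it ranged from -2.76 to -2.11. Without 5-Fu injection replicate 2 the same fold change was called (limma adjusted p = 0.00395), and without NS replicate 1 the limma adjusted p was 0.248.

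NES (ENSOCUG00000001454, chromosome 13 from 36260071 to 36267928, plus strand) encodes nestin, an intermediate filament of immature cells. It read 20.1, 16.6 and 19.7 FPKM in NS, 56.1, 24.6 and 20.9 in HS, 11.9, 12.4 and 18.4 with drug-loaded MNs, and 9.21, 26.4 and 22.9 with 5-Fu injection. Each HS sample was above each NS sample, by a narrow margin in HS replicate 3 and by a wide one in HS replicate 1. The log2 fold change of 0.69 (SE 0.40, limma adjusted p = 0.344) did not pass and was 0.26 without HS replicate 1, and 18.0% of all genes tested were higher in every HS sample.

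**Figure D1:**
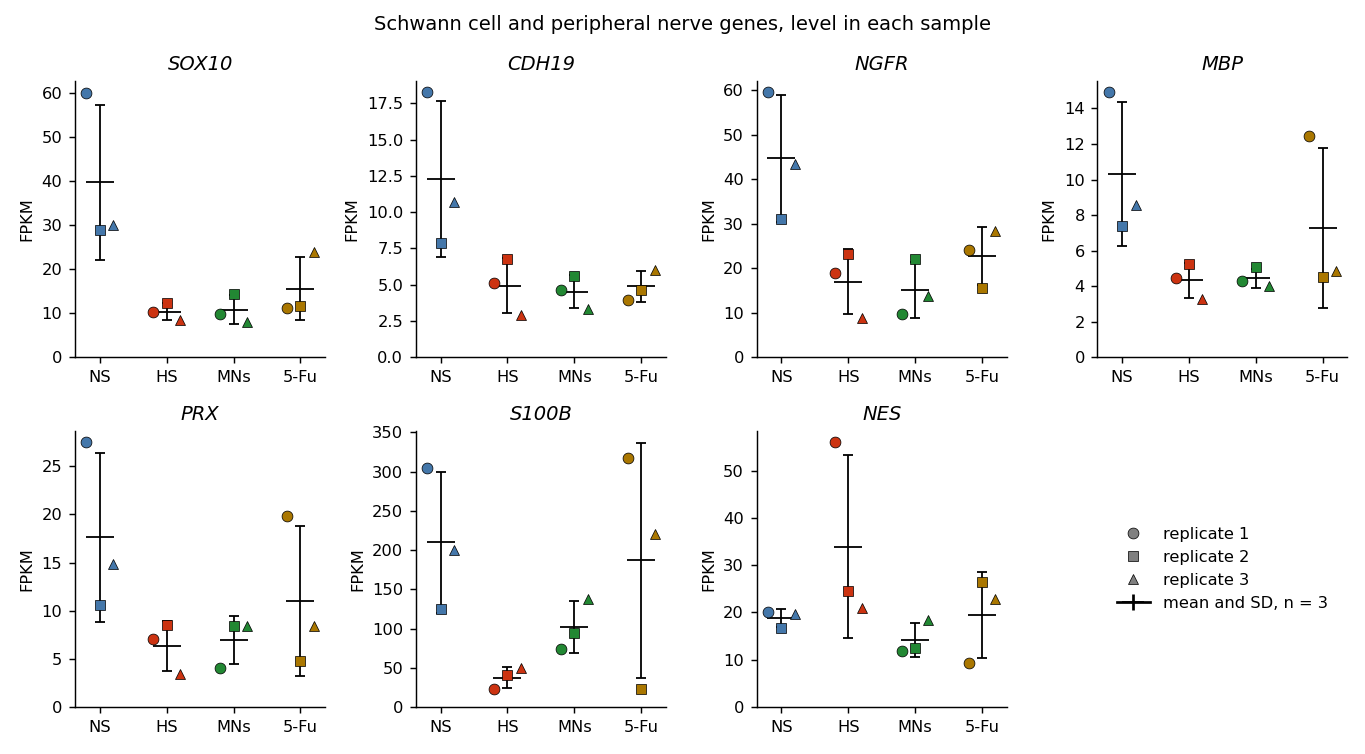
Level of each of the 7 genes in FPKM (vertical axis, linear, from 0) in the 3 samples of NS, HS, drug-loaded MNs (MNs) and 5-Fu injection (5-Fu), with the mean and SD of each group. For SOX10, CDH19 and NGFR all 9 scar samples sit below all 3 NS samples, whereas for MBP, PRX and S100B the 5-Fu injection samples are spread, with replicate 1 at 12.4, 19.8 and 317 FPKM.

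In bulk tissue, fewer Schwann cells and less RNA of these genes per cell cannot be told apart. Because FPKM is relative to a library size, more RNA from other cells of the scar cannot be told apart from these either. The deposited values were scaled so that the median gene hardly moved between groups. When they were rescaled to the total of reads on genes, the median over all genes in HS versus NS moved to -0.33 on the log2 scale, and 6 of the 7 genes were called lower, as were 5.63% of all genes tested under that scaling, with SOX10 at -2.12 (limma adjusted p = 0.00608), or -1.78 relative to that shift. MBP, PRX, S100B, NGFR and CDH19 stood at -1.02, -1.31, -2.46, -1.41 and -1.12 relative to it, and NES at 0.67.

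Other myelin genes had lower levels in HS as well, and a minority of them passed. Of 20 listed genes of myelin and the myelinating Schwann cell, 15 were tested, and all 15 had a negative fold change. Of these, 14 were lower in every HS sample, beside 15.3% of all genes tested, and 5 were called lower, where 1.48% of all genes tested were. The median log2 fold change of the list was -1.30, beside -0.01 for all genes tested. Of the called genes, MAL, GJC3, CMTM5 and FXYD3 are described here. CMTM5 read 85.6, 46.5 and 58.8 FPKM in NS and 3.54, 8.41 and 12.6 in HS, and had the lowest fold change of the list (log2 fold change -2.91, SE 0.70, limma adjusted p = 0.0287). MAL, a raft protein of myelin and epithelia, was at -1.97, and GJC3, a connexin of myelinating glia, at -1.11 (limma adjusted p = 0.0456 and 0.0299). FXYD3, a regulator of the sodium pump that epithelia also express, was at -1.60 (limma adjusted p = 0.00909). FXYD3 stayed called in 21 of 21 alternatives, CMTM5 in 15 of 21, GJC3 in 12 of 20 and MAL in 9 of 21. EGR2, the zinc finger factor that acts with SOX10 on myelin genes, was at -1.33 and not called (limma adjusted p = 0.087).

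The next list held genes of the Schwann cell lineage and of non-myelinating Schwann cells. Of 17 listed genes, 13 were tested, 11 had a negative fold change, 4 were called lower, where 1.48% of all genes tested were, and 9 were not called, with a list median of -0.90. ERBB3, the receptor through which axonal neuregulin reaches Schwann cells, read 20.4, 13.3 and 14.3 FPKM in NS and 6.66, 8.78 and 6.60 in HS (log2 fold change -1.02, limma adjusted p = 0.0149). LGI4, a protein secreted by Schwann cells that is needed for myelination, read 33.6, 20.9 and 27.2 FPKM in NS and 9.90, 12.5 and 9.24 in HS (-1.27, limma adjusted p = 0.0105). L1CAM, an adhesion molecule of unmyelinated fibres, was at -1.33, and GFRA3, the receptor for artemin, at -1.06 (limma adjusted p = 0.0201 and 0.0272). The interval of L1CAM overlaps that of RENBP on the same strand, at a mean of 14.1 FPKM, so reads in the shared stretch could be assigned to either. LGI4 stayed called in 21 of 21 alternatives, ERBB3 and L1CAM in 18 of 21 each, and GFRA3 in 16 of 21. ADGRG6, a receptor of immature Schwann cells, and NCAM1, an adhesion molecule, showed values near 0, at 0.06 and 0.05.

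The repair programme was read from a list of its own. Of 12 listed genes of repair Schwann cells and nerve injury, 9 were tested, 2 were called higher and none lower, with a median of 0.00, and 3.53% of all genes tested were called higher in HS. GAP43, a protein of growing axons and of Schwann cells after injury, was low in NS at 0.412, 0.463 and 0.513 FPKM and read 13.6, 3.18 and 4.97 in HS (log2 fold change 2.29, SE 0.47, limma adjusted p = 0.0162). TNC, the matrix protein tenascin C, which fibroblasts of healing wounds also secrete, read 23.2, 44.6 and 63.0 FPKM in NS and 390, 432 and 479 in HS (3.39, SE 0.72, limma adjusted p = 0.0184). GAP43 stayed called in 19 of 20 alternatives and TNC in 17 of 21. JUN, the regulator of the repair state, was at 0.13 (limma adjusted p = 0.876), and ATF3, an early injury factor, at -1.17 (limma adjusted p = 0.0661). NGFR, which rises in repair Schwann cells, was lower in every HS sample, as given above.

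Of the genes for neurotrophins, neuregulins and their receptors, 9 of 11 were tested and none was called. Their median was -0.17, and ERBB2, the partner of ERBB3, had a fold change of -0.75 (limma adjusted p = 0.0602). The receptors SORT1 and NTRK2 were at -0.17 and 0.07 (limma adjusted p = 0.679 and 0.922). Axonal mRNA sits mostly in cell bodies in ganglia outside the ear, and only 3 of 10 axon and neuron genes were tested. Among them UCHL1, a ubiquitin hydrolase used to stain skin nerves, was called lower, with 7.47, 4.56 and 6.80 FPKM in NS and 1.30, 0.759 and 2.02 in HS (log2 fold change -1.64, limma adjusted p = 0.0267). It rested on 8 to 90 reads per sample and stayed called in 15 of 20 alternatives. TUBB3 and MAP1B, the other axon genes tested, were not called. Over the alternatives, TUBB3 ran from -0.83 to -0.07 and MAP1B from -0.07 to 0.33. The median of the axon list was -0.41. Of 9 listed perineurium and endoneurium genes, 7 were tested and 1 was called, SLC2A1, the glucose transporter of perineurial cells that keratinocytes also carry (-1.38, limma adjusted p = 0.014). In that list 5 genes had negative and 2 had positive fold changes, with a median of -0.82. Over all genes tested, 1.48% were called lower in HS.

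**Figure D2:**
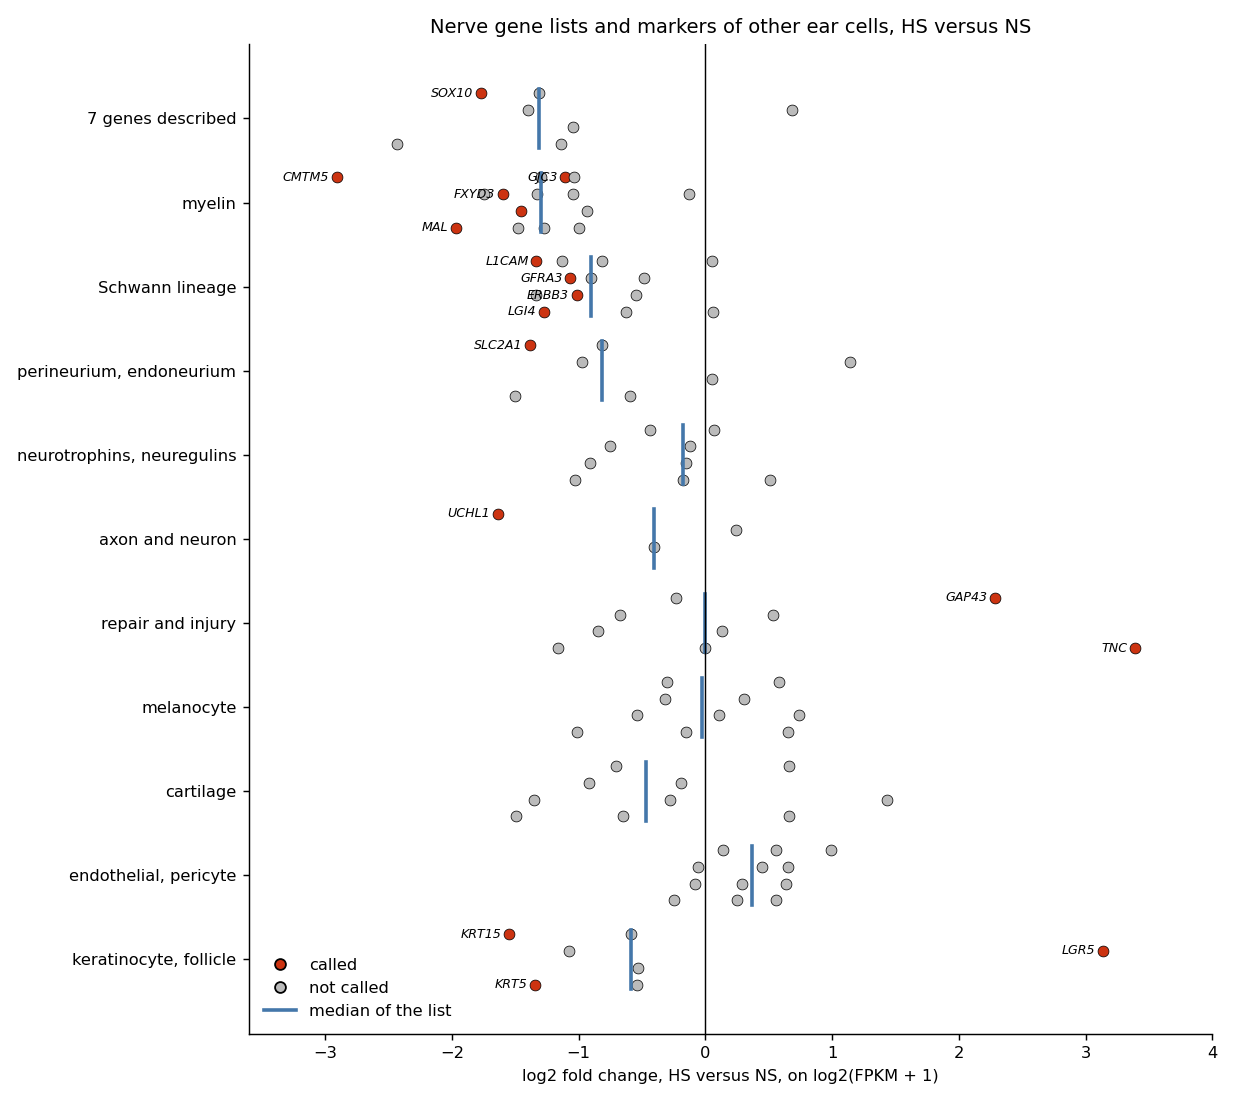
Log2 fold change of HS versus NS (horizontal axis) for every tested gene of the nerve lists and of the melanocyte, cartilage, endothelial and keratinocyte lists, with called genes in red, those described in the text being named, other genes in grey, and the list's median as a blue line. The 7 genes described here and the myelin list have medians of -1.32 and -1.30, and GAP43 and TNC stand at 2.29 and 3.39 in the repair list.

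Markers of other cells that can express these genes were set beside them. The melanocyte list had none of 10 genes called, a median log2 fold change of -0.02, and a summed level of 65.8 to 116 FPKM in NS and 43.7 to 109 in HS. The part of melanocytes in the SOX10 result was not tested. The cartilage list also had none of 10 genes called, and its sum ran from 1720 to 3521 FPKM in NS and from 796 to 5609 in HS. The part of cartilage in the S100B result of HS versus NS was not tested. Of 8 listed adipocyte genes 5 were tested and none was called, with a median of -0.41 and a sum of 457 to 740 FPKM in NS and 514 to 637 in HS. The keratinocyte and hair follicle list did move with the groups. KRT5 and KRT15, keratins of the basal layer and follicle bulge, were called lower in HS (-1.34 and -1.55, limma adjusted p = 0.042 and 0.0248), and LGR5, a follicle stem cell gene, was called higher (3.13, limma adjusted p = 0.00177). The interval of KRT5 overlaps those of same-strand keratin genes such as KRT1 (mean 1326 FPKM), and that of KRT15 overlaps KRT16 (mean 761 FPKM). Reads in the shared stretches could be assigned to either gene. The sum of the list was 2378 to 3968 FPKM in NS and 1400 to 1998 in HS. It includes KRT1 and KRT10, so it does not measure basal and follicular keratinocytes alone. Neither of these keratins was called. Over the alternatives, KRT1 ran from -0.90 to -0.34 and KRT10 from -1.48 to -0.76. The part of keratinocytes in the NGFR, FXYD3, MAL and SLC2A1 results was not tested. With drug-loaded MNs the keratinocyte sum was 3803 to 8997 FPKM. For NES, the endothelial and pericyte list had none of 12 genes called, a median of 0.37, and a sum of 505 to 847 FPKM in NS and 729 to 910 in HS. The skeletal muscle list, with 4 of 10 genes tested and none called, summed to 109 to 553 FPKM in NS and to 46.7 to 75.6 in HS. That sum is mainly DES, with a mean of 117 FPKM over all samples, beside 6.92 for ACTA1, 4.91 for CKM and 2.96 for TNNT3.

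**Figure D3:**
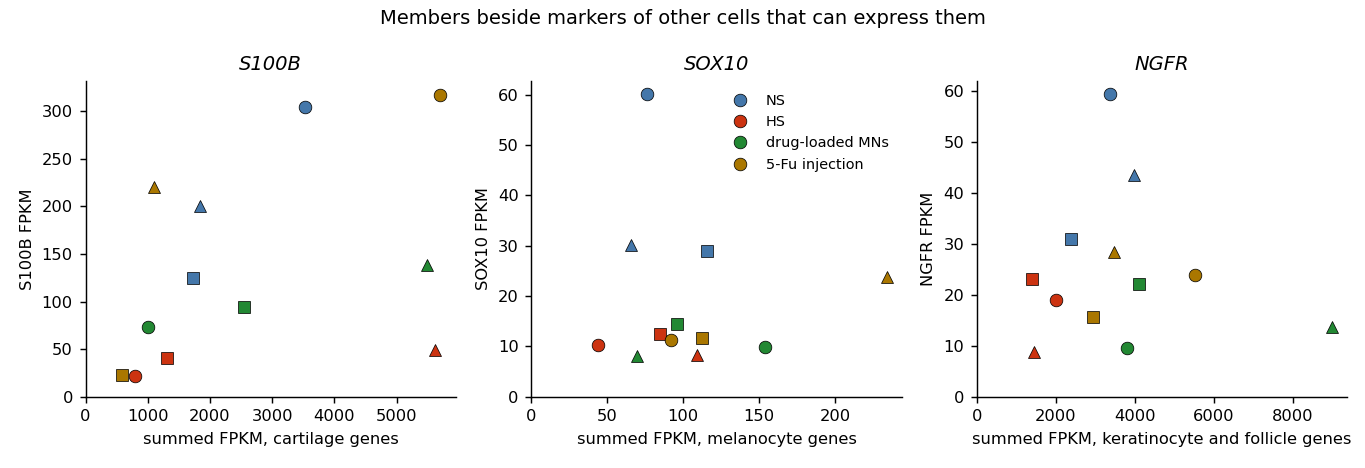
Level of S100B, SOX10 and NGFR (vertical axes, FPKM) against the summed FPKM of cartilage, melanocyte, and keratinocyte and follicle genes (horizontal axes) in each of the 12 samples, with circles, squares and triangles for replicates 1, 2 and 3. The NS samples are above all scar samples in SOX10 and NGFR, and 5-Fu injection replicate 1 combines the highest S100B, 317 FPKM, with the highest cartilage sum, 5698 FPKM. HS replicate 3 has a cartilage sum of 5609 FPKM with S100B below every NS sample.

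Ratios of the genes within a sample do not depend on how the library was scaled, and are given here as a description without a test. SOX10 was lower in every HS sample, so a gene that fell less than SOX10 has a higher ratio to it in HS. The share of all genes whose ratio to SOX10 did not overlap between NS and HS was not counted. MBP over SOX10 was 0.248, 0.256 and 0.285 in NS and 0.431, 0.422 and 0.393 in HS, so that the groups did not overlap. PRX over SOX10 was 0.457, 0.366 and 0.494 in NS and 0.682, 0.688 and 0.408 in HS, with overlap. CDH19 over SOX10 was 0.304, 0.273 and 0.356 in NS and 0.493, 0.546 and 0.352 in HS, also with overlap. NGFR over SOX10, at 0.990 to 1.44 in NS and 1.06 to 1.87 in HS, and S100B over SOX10, at 4.32 to 6.65 in NS and 2.15 to 5.89 in HS, overlapped as well. NES over SOX10, at 0.334 to 0.655 in NS and 1.98 to 5.41 in HS, did not. This followed from NES being higher and SOX10 lower in every HS sample. With drug-loaded MNs, MBP over SOX10 was 0.432, 0.349 and 0.497, above every NS sample. With 5-Fu injection it was 1.11, 0.384 and 0.203, the highest and the lowest of all 12 samples being replicates 1 and 3 of that group. Replicate 1 also had the highest PRX over SOX10, at 1.76. Replicate 3 had the highest melanocyte sum of the series, 234 FPKM, together with the highest SOX10 of the scar samples, 23.8 FPKM. The next highest melanocyte sum, 154 FPKM, was in drug-loaded MNs replicate 1, whose SOX10 lay within the HS range. NS replicate 1, with the highest SOX10 of the series, had a melanocyte sum of 76.0 FPKM. The part of melanocytes in these SOX10 values was not tested.

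**Figure D4:**
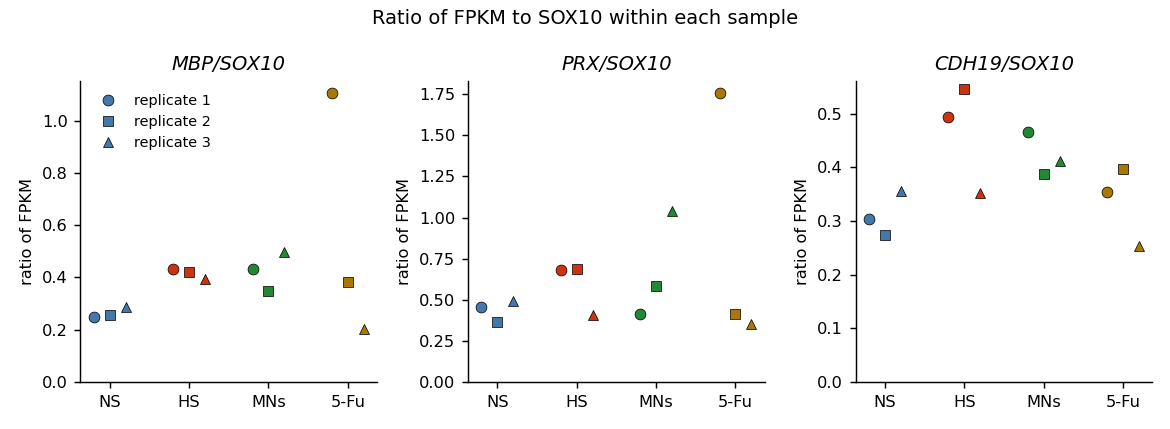
Ratio of FPKM of MBP, PRX and CDH19 to that of SOX10 (vertical axes, linear, from 0) in each sample of the 4 groups. The MBP ratio is 0.248 to 0.285 in NS and 0.393 to 0.431 in HS, and 5-Fu injection replicate 1 is the highest sample in the MBP and PRX panels.

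The second comparison, drug-loaded MNs versus HS, asked what the patch changed in scar. None of the 7 genes was called, nor was any gene of the other nerve lists. Over all genes tested, 0% were called lower and 0.00753% higher, which was 1 gene. SOX10, CDH19, NGFR, MBP and PRX had log2 fold changes of 0.03, -0.07, -0.13, 0.04 and 0.14, and their values overlapped those of HS. The 95% interval of the SOX10 difference, -0.72 to 0.79, held changes of less than 2-fold either way, and that of PRX, -0.94 to 1.21, was wider. S100B was higher than in HS in every sample (log2 fold change 1.45, 95% interval -0.27 to 3.17, limma adjusted p = 0.627), as were 8.53% of all genes tested, and the cartilage sum was 1008 to 5494 FPKM with drug-loaded MNs. NES was lower than in HS in every sample (-1.09, 95% interval -1.97 to -0.20, limma adjusted p = 0.478), and at -0.66 without HS replicate 1. Over all genes tested, 10.3% were lower in every sample. NES had an unadjusted p under 0.05, as had 4.12% of all genes on the lower side.

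The third comparison, 5-Fu injection versus HS, addressed the same question for the injected drug. Again none of the 7 genes was called, where 1.78% of all genes tested were called lower and 0.512% higher. The fold changes of 6 genes were positive, from 0.03 for CDH19 to 1.70 for S100B, and that of NES was -0.75, with every gene's values overlapping those of HS. S100B had a 95% interval of -0.02 to 3.42 (limma adjusted p = 0.196), and it moved with each 5-Fu injection sample. Without replicate 1 the log2 fold change was 1.00 (limma adjusted p = 0.464), without replicate 3 it was 1.26 (limma adjusted p = 0.445), and without replicate 2, at 23.1 FPKM, it was 2.86 and was called (limma adjusted p = 0.00585). Replicate 2 also had the lowest cartilage sum of the series, 586 FPKM, whereas replicate 3 had S100B within the NS range at a cartilage sum of 1096 FPKM. The part of cartilage in the S100B result was not tested. MBP at 0.52 and PRX at 0.58 (limma adjusted p = 0.358 and 0.481) were 0.11 and 0.08 without 5-Fu injection replicate 1. In the myelin list 2 of 15 genes were called higher, GJC3 (8.60, 4.34 and 7.00 FPKM against 1.68, 2.23 and 2.46 in HS, log2 fold change 1.26, limma adjusted p = 0.0337) and FXYD3 (1.33, limma adjusted p = 0.0362), calls kept in 11 of 20 and 12 of 21 alternatives. In the keratinocyte and hair follicle list KRT15 was called higher (1.49, limma adjusted p = 0.0426), a call kept in 9 of 21 alternatives. LGR5 of the same list was called lower, with log2 fold changes from -2.81 to -1.80 over the alternatives and the call kept in 15 of 21. The keratinocyte sum was 2938 to 5531 FPKM.

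Treated scars were also set against normal skin, using the same NS samples as the first comparison. With drug-loaded MNs, all 7 genes had negative fold changes, 5 were lower in every sample than in NS, and SOX10 was called. Over all genes tested, 0.0828% were called lower, 9.11% were lower in every sample and 5.25% had an unadjusted p under 0.05 on the lower side, as had 5 of the 7 genes. SOX10 stood at -1.74 (95% interval -2.49 to -0.99, limma adjusted p = 0.0431), NGFR at -1.53, CDH19 at -1.22, PRX at -1.18 and MBP at -1.0 (limma adjusted p = 0.112, 0.124, 0.343 and 0.232). The call of SOX10 was kept in 8 of 21 alternatives only, with adjusted p from 0.028 to 0.172. It was lost when any 1 of the NS, HS or drug-loaded MNs samples was left out, with log2 fold changes from -1.95 to -1.40.

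With 5-Fu injection, all 7 genes had negative fitted fold changes and none was called, where 0% of all genes were called lower. SOX10, NGFR and CDH19 were lower in every sample than in NS, beside 9.16% of all genes, and these 3 genes had an unadjusted p under 0.05, beside 6.98% of all genes. Their log2 fold changes were -1.29, -0.94 and -1.12 (limma adjusted p = 0.17, 0.298 and 0.194). MBP, PRX and S100B at -0.52, -0.73 and -0.73 overlapped NS, as did NES at -0.07, which turned to 0.37 without 5-Fu injection replicate 1. For S100B the direction turned without 5-Fu injection replicate 2, to 0.42.

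**Figure D5:**
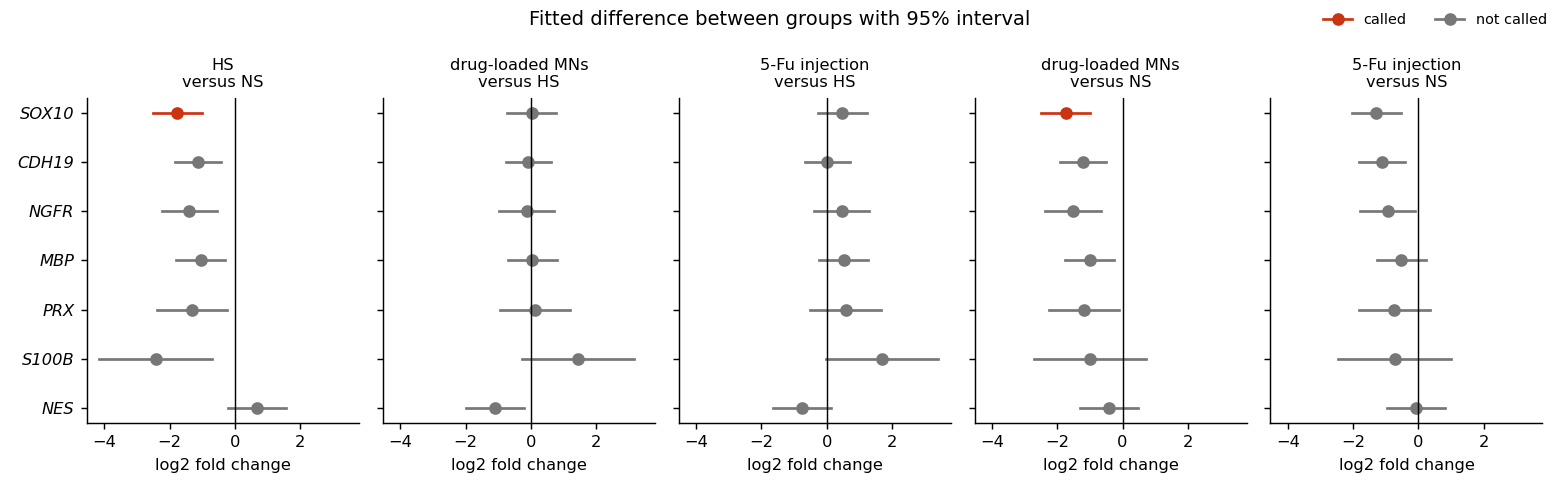
Log2 fold change of the 7 genes (points) with its 95% interval (lines) in 5 comparisons, from limma on log2(FPKM + 1), with called differences in red. SOX10 at -1.77 in HS versus NS and at -1.74 in drug-loaded MNs versus NS are the red points, and in both comparisons of treated with untreated scar most intervals span 0.

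Between the treatments directly, drug-loaded MNs versus 5-Fu injection, all 7 fold changes were negative, from -0.59 for NGFR to -0.10 for CDH19, with every gene overlapping and limma adjusted p from 0.486 to 0.899. No gene was called in this comparison, so that the share of all genes was 0% in each direction.

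Across the 12 samples, some pairs of the genes varied together. On log2(FPKM + 1), MBP and PRX had a Pearson r of 0.94, SOX10 and CDH19 of 0.94, SOX10 and NGFR of 0.90, and S100B and CDH19 of 0.42. NES went with none of them, its r running from -0.61 with S100B to 0.08 with CDH19. The tested genes with a pattern most like theirs by Pearson r included CLDN19 (0.96), a claudin of myelin, for PRX, DRP2 (0.94), a partner of periaxin, and CLDN19 (0.94) for MBP, IGSF11 (0.93) and UGT8 (0.92), the enzyme of myelin galactolipid synthesis, for SOX10, IGSF11 (0.95), FRMD8 and UGT8 (both 0.90) for CDH19, and CADM4 (0.95) and GLDN (0.95), the node protein gliomedin, for NGFR. The third genes for PRX, MBP and SOX10 were PLEKHB1 (0.94), THAP11 (0.92) and TMCC2 (0.92). The closest genes to S100B were C11orf52, ECHDC2 and PDCD4 (0.96, 0.95 and 0.95), and those to NES were DNM3, SUGP2 and SYDE1 (0.95, 0.92 and 0.91). For the mean of the 7 genes, CADM4 (0.94) and ITGB8 (0.94) were among the closest. These samples share groups, libraries and scaling, and the correlations describe them only.

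The row without a symbol that is described as peripheral myelin protein 22 (ENSOCUG00000026099) was chosen after its values were seen and is not counted among the 7 genes. It read 187, 98.3 and 140 FPKM in NS, 54.8, 119 and 102 in HS, 109, 108 and 58.1 with drug-loaded MNs, and 121, 92.6 and 144 with 5-Fu injection. The groups overlapped, and HS versus NS gave -0.64 (limma adjusted p = 0.297). This protein is also made by fibroblasts and epithelia.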

How the data were processed

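mRNA from 12 samples was sequenced, and FPKM values for all of them were deposited by the authors in a single table, beside gene symbols and coordinates. The aligner, annotation and genome build are not given in the sources used here. Multiplied by gene length, 100% of the values lay within 0.05 of a whole read, so reads were counted back, and the library size in the FPKM was 0.873 to 1.20 times the reads on genes.

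Groups came from the sample labels, which give no date or batch and do not state that each sample was 1 rabbit. Groups were compared in limma 3.58.1 (R 4.3.3) with a mean-variance trend on log2(FPKM + 1), over 6 comparisons, keeping genes at a mean of 1 FPKM or more. The authors ran DESeq2. Here limma took its place, because the deposited values are FPKM. Limma voom was run on the reads counted back as an alternative, and DESeq2 was not. Numbers of called genes here and in the study therefore rest on different methods. In simulated HS versus NS data with 200 changed genes among 13287, recovery was 58.2% for a log2 change of 1.5, 82.1% for 2 and 100% for 3, beside 6 false calls. The simulation gave every gene and group the same dispersion, 0.1. Recovery at the spread of a single gene, such as S100B with its wide error, was not simulated.

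The genes and the lists were chosen with earlier results of these data known, and list genes without a symbol were matched by protein name after those names had been seen. From a list, the called genes were named and, where few or none were called, up to 4 tested genes of highest mean FPKM. By likeness, the 3 genes of highest Pearson r were named for each gene and for their mean. EGR2, ADGRG6 and NCAM1 were named outside this rule, after their values were seen. A few genes that the rule would name are not reported here.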

Additional observations from a re-analysis of the deposited data

How the results depend on the processing

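Of 378 fold changes of the 7 genes under 9 alternatives that kept all samples, 361 kept their direction and side of the threshold, 10 passed it newly, 4 no longer passed and 3 reversed. The reversed ones were near 0, all in drug-loaded MNs versus HS: MBP was -0.026 under quantile normalization, and NGFR and CDH19 were 0.0096 and 0.046 after rescaling to the total of reads. Leaving out each sample in turn gave 504 values, of which 470 kept both, 5 passed newly, 9 no longer passed and 20 reversed. For the genes that reversed, drug-loaded MNs versus HS ranged from -0.10 to 0.17 for MBP, from -0.19 to 0.43 for PRX, from -0.18 to 0.21 for SOX10, from -0.51 to 0.14 for NGFR and from -0.34 to 0.15 for CDH19. 5-Fu injection versus HS ranged from -0.24 to 0.25 for CDH19, and 5-Fu injection versus NS from -1.44 to 0.42 for S100B and from -0.34 to 0.37 for NES. Drug-loaded MNs versus 5-Fu injection ranged from -0.87 to 0.052 for PRX, from -1.41 to 0.45 for S100B and from -0.24 to 0.066 for CDH19. The cause was not tested.

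The number of all genes called moved more. In HS versus NS it was 665 (469 higher, 196 lower), 1059 after rescaling to the total of reads (311 higher, 748 lower), and 382 (without NS replicate 1) to 749 with a sample left out. In drug-loaded MNs versus HS it was 1, 2 without a filter on low values or without the trend, 37 with only the 2 groups fitted, 0 by limma voom on reads or with the replicate block, and 0 to 2 with a sample left out. In 5-Fu injection versus HS it was 304, 585 by adjusted p alone, 93 without the filter, 0 with only the 2 groups fitted, 99 with the replicate block, and 0 (without HS replicate 2 or 3) to 803 (without 5-Fu injection replicate 2). In drug-loaded MNs versus NS it was 116, 51 without the filter, 23 with the replicate block, and 0 (without NS replicate 2) to 176. In 5-Fu injection versus NS it was 1, 2 with a pseudocount of 0.1 or without the filter, 3 at a mean FPKM of at least 5 or under quantile normalization, 4 after rescaling, 0 with only the 2 groups fitted, without the trend or with the replicate block, and 0 to 20 with a sample left out. Between the treatments it was 0, 1 without the filter and 0 to 12 with a sample left out.

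Same-numbered samples were different rabbits, and the correlations of their deviations from the group means ran from -0.27 to 0.44, so the numbers were not taken as pairs. With the replicate block, SOX10 stayed called in HS versus NS (limma adjusted p = 0.0307) and was not called in drug-loaded MNs versus NS (0.0974).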
